A study of Mus musculus with 130 samples.

Results

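Genes named for the subunits of the 5 oxidative phosphorylation complexes were followed in mouse liver across 5 diets and 114 strains. Members were chosen by gene symbol alone: names beginning Nduf followed by a, b, c, s or v and a digit, Sdha to Sdhd, Uqcr, Cox4 to Cox8 with a letter a to c, Atp5, and the protein genes of the mitochondrial genome. After 7 pseudogenes with -ps in their symbol and 1 second identifier were left out, 99 genes of 35274 in the diet tables matched, 86 in the nuclear genome and 13 in the mitochondrial genome. The annotation lists 4 of the nuclear members as processed pseudogenes, Ndufa11b, Ndufb4c, Ndufs6b and Cox6c2, which the rule keeps because their symbols lack that mark. None of the 4 was called in any comparison, and Ndufs6b was too low to be tested in the diet study. Complex I has 40 nuclear and 7 mitochondrial members, complex II 4 nuclear members, complex III 8 and 1, complex IV 17 and 3, and complex V, the ATP synthase, 17 and 2. The symbol rule places Ndufa4 and Ndufa4l2 with complex I, although the Ndufa4 protein is now counted with complex IV.

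Liver RNA of 130 male mice was sequenced, each library from 1 mouse. In the diet study, 15 C57BL/6J mice were fed 1 of 5 diets, 3 mice on each: chow, sufficient iron at 50 ppm, elevated iron at 500 ppm, 2% carbonyl iron (20000 ppm), or 2% carbonyl iron whose fibre came from cellulose. In the panel, 114 strains ate 2% carbonyl iron for 6 weeks after 4 weeks of chow: 56 BXD strains (C57BL/6J by DBA/2J), 10 AXB and 10 BXA strains (C57BL/6J and A/J in reciprocal crosses), 4 BXH, 3 CXB and 31 other inbred strains, with 1 mouse per strain except 129X1/SvJ. The labels give no batch, no age and no replicate number, so a mouse's number here is only a name. In the diet study they give no iron level for chow and name a fibre source only for the cellulose diet. All panel mice were iron loaded, so no panel value is a response to iron.

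Oxidative phosphorylation passes electrons from NADH and succinate through complexes I to IV to oxygen and uses the resulting proton gradient to make ATP at complex V. The mitochondrial genome supplies a few core subunits of complexes I, III, IV and V, transcribed as long precursors from both strands, while complex II and all other subunits come from nuclear genes. Several subunits carry iron-sulfur clusters or haem, and liver, rich in mitochondria, is the main store of excess iron.

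The 15 diet libraries held 10.4 to 20.4 M counts and the 115 panel libraries 9.41 to 20.6 M, M being 1000000. Hepatocyte markers were high throughout (the 8 markers summed to 52400 TPM or more in each of the 15 diet mice), while none of the 11 markers of striated muscle passed the low count filter of the diet fit or the family fits. All panel mice are labelled male, and 4 Y-linked genes (Ddx3y, Uty, Eif2s3y and Kdm5d) summed to 124 to 313 CPM in 114 libraries but to 3.86 CPM, from 45 counts, in the library labelled BXD65/RwwJ. Without that library the 8 members called between the BXD and the AXB and BXA strains kept their calls. Macrophage markers and most erythroid markers tested were higher in both diet groups that ate 2% iron. The 10 macrophage markers summed to between 117 and 206 TPM at 50 ppm, 430 to 524 TPM at 2% iron and 525 TPM or more with cellulose, and all 10 rose at 2% iron. The 8 erythroid markers summed to between 76.8 and 135 TPM at 50 ppm, 660 to 1070 TPM at 2% iron and 360 to 1030 TPM with cellulose. Of the 6 erythroid markers tested 5 rose at 2% iron and Alas2 fell. The 7 endothelial markers summed to 73.4 to 103 TPM at 50 ppm and 111 to 121 TPM at 2% iron, and 2 of them rose, Cdh5 by 1.02 and Stab2 by 0.80 on the log2 scale. The 8 stellate cell markers summed to 39.6 to 63 TPM at 2% iron against 32.9 to 59.2 TPM at 50 ppm, where none was called, and 18.4 to 27.7 TPM on chow, against which 5 rose. With cellulose the stellate markers summed to 38.4 to 41.3 TPM, and none was called against 50 ppm. None of the 6 lymphocyte and 4 cholangiocyte markers tested was called at 2% iron against 50 ppm. With cellulose 1 lymphocyte marker fell. In whole tissue, fewer cells of a type and less RNA per cell cannot be told apart. The part of these other cells in any result below was not tested.

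Many members have near-identical copies elsewhere in the genome, and the deposited values depend on how reads were shared among them. In the GENCODE M21 transcripts, 37 members had 56 such copies, and 9 members had more than 50% of their 31-base words in another gene. The mitochondrial members are affected most through a stretch of chromosome 1 that carries a copy of part of the mitochondrial genome. All words of mt-Co2 (100%), 99.9% of mt-Co3, 99.5% of mt-Atp6, 98.9% of mt-Nd4l and 98.1% of mt-Nd3 also occurred in other genes, against 63.9% of mt-Co1, 62.8% of mt-Nd4, 16.8% of mt-Nd5, 13.5% of mt-Nd2, 7.5% of mt-Atp8, 7.4% of mt-Nd6, 6.6% of mt-Cytb and 0% of mt-Nd1. The coding start of mt-Co3 and of its chromosome 1 copy Gm28437 (chr1:24613189-24613971, GRCm38) show why no read from this stretch can be told apart, since the 783 aligned bases hold no difference and so no capital.

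mt-Co3: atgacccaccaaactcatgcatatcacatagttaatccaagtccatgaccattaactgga
Gm28437: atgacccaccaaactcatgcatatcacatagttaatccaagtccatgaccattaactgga

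A pair of nuclear members each has a processed copy, and the level assigned to that copy differs between strains. Whether reads of the member itself were assigned to its copy was not tested. Ndufa12, an accessory subunit of complex I (chr10:94198720-94221443), and the copy Gm15920 on chromosome 5 (chr5:130188395-130188796) differ at 2 of 402 aligned coding bases, and the stretch around 1 of them is shown with the differing base in capitals.

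Ndufa12: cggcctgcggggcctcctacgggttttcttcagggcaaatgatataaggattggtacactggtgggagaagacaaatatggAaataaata
Gm15920: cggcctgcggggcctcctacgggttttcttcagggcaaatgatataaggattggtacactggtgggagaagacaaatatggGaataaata

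Cox7a2l (chr17:83501918-83517330), which acts in the joining of complexes III and IV into supercomplexes, is known to occur in a shorter form in C57BL/6J, the reference strain. Its copy Gm6969 (chr12:24638669-24639010) lies apart from it in the reference by 2 differing bases and by 6 bases without a partner, and the capitals mark all of these that fall in the window.

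Cox7a2l: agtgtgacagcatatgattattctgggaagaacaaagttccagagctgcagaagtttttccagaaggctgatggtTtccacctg
Gm6969: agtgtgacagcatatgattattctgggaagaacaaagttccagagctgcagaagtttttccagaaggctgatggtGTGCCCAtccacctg

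Some promoter motifs, which the choice by name did not use, were more frequent among nuclear members than among all genes. RefSeq promoters of 300 bases (250 before to 50 after the start, GRCm38.p6) were given for 66 members. The motif of NRF1, a regulator of nuclear mitochondrial genes (GCGCANGCG, either strand), was in 20 of them, 30.3%, against 7.03% of all 27025 genes with promoters given. A gene with several promoters was counted once, with a match in any of them. The ETS motif (CCGGAAG, either strand) was in 16, or 24.2%, against 9.93%. The motif of the oestrogen-related receptors (TCAAGGTCA, either strand) was in 2, or 3.03%, against 0.466%, and that of YY1 (AAGATGGCG, either strand) in 7, or 10.6%, against 1.64%. Most YY1 matches lie at or past the start, since 1 was left in the 250 upstream bases alone (1.52%). A match is a run of letters, and nothing was measured on binding. Windows of 60 bases before the start, with the motif in capitals, are shown for 4 members. These are the first with an upstream match among members with negative log2 changes, in order of p at 2% iron against 50 ppm. Members without such a match were passed over, among them Ndufv2, Ndufv3 and Ndufb11, which were called lower. Of the 4 shown only Uqcr11 was called in that comparison, and a link between motif and change was not tested. The windows are Uqcr11 (ETS, chr10:80406855-80406914), Sdha (NRF1, chr13:74350305-74350364), Atp5g2 (NRF1, chr15:102671056-102671115) and Atp5c1 (NRF1, chr2:10080433-10080492), all on the minus strand.

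Uqcr11: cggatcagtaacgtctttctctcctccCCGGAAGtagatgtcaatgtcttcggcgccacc
Sdha: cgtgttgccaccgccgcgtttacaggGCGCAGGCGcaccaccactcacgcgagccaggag
Atp5g2: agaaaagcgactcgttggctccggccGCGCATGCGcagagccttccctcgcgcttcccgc
Atp5c1: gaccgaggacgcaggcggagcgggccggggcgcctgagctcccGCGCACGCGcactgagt

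The mitochondrial genes gave most of the oxidative phosphorylation RNA of these livers. Levels between genes are compared as TPM, which is scaled by transcript length and library, as medians over the 15 diet mice. The highest levels were those of mt-Co1 (17100 TPM), mt-Atp6 (16500 TPM) and mt-Co3 (10800 TPM), and 12 of the 13 mitochondrial members stood above every nuclear one. The exception was mt-Nd3 (506 TPM, range 143 to 955), whose reads its copy Gm28438 shares (median 3960 TPM). Among nuclear members, Atp5b, the catalytic beta subunit of ATP synthase, was highest (656 TPM, range 601 to 730), followed by Cox7c (567), Uqcrq (472), Ndufa4 (440) and Atp5a1 (398). The ranges over mice of neighbours in this order overlap, so it holds only for the medians.

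Where complex IV has tissue isoforms, the general ones were present and the striated muscle ones had few or no counts. Cox6a1 had a median of 350 TPM and Cox8a of 348 TPM. Cox6a2 and Cox7a1, the isoforms of heart and skeletal muscle, reached at most 2 and 13 counts in a library, and Cox8b had none. Cox7a1 was found in all diet mice, at 0.73 to 5.91 TPM. The testis isoforms Cox6b2, Cox7b2 and Cox8c had at most 5, 0 and 0 counts. Together with Ndufs6b these 6 genes are the 7 members that failed the filter, which left 92 members tested among 13560 genes. A count of 0 does not show that a gene is silent, only that it was below detection at this depth.

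At 2% iron against 50 ppm, mitochondrial and nuclear members went opposite ways. Of the 13 mitochondrial members 12 had positive log2 changes and 3 rose, with a median of 0.25. Of the 79 nuclear members tested 73 had negative log2 changes, 10 fell and 1 rose, with a median of -0.16. Members called at an adjusted p under 0.05 (edgeR) were thus 4 higher and 10 lower, 14 of 92. Over all genes tested, 8.52% were called higher and 7.17% lower, with a median log2 change of 0.01. The share of members called lower, 10 of 92, was near that background, and the changes were small: without Ndufa4l2, every member that rose or fell did so by at most 0.45 on the log2 scale.

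The number of calls in this comparison fell whenever 1 of its mice was left out, which also leaves less data for the test. Not every call was lost in this way, and that of Ndufa4l2 was kept in all 15 fits without 1 mouse. The count of 14 became 4, 9 and 3 without mouse 1, 2 or 3 of the 2% group, and 3, 3 and 9 without mouse 1, 2 or 3 of the 50 ppm group. It became 9 without mouse 2 of the cellulose group and 7 without mouse 1 of the chow group. These mice are not in the comparison and enter through the joint fit, that is its filter, scaling factors and shared estimate of spread. None of the 10 lower members kept its call with limma on log2 TPM at either pseudocount, and each kept it in 6 to 8 of 10 other settings.

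The mitochondrial members that rose included mt-Nd6, the only one of the mitochondrial members annotated on the minus strand. How reads were assigned to strands is not given, and whether the mt-Nd6 values hold reads of the other strand was not tested. mt-Nd1, a membrane subunit of complex I with no word in another gene, had 5320, 5320 and 4520 CPM (counts relative to the library total, scaled with TMM factors) at 50 ppm and 7560, 5730 and 7420 CPM at 2% iron. Every 2% mouse lay above every 50 ppm mouse, mouse 2 by the smallest margin, with a log2 change of 0.45 (SE 0.137, adjusted p = 0.0405). mt-Nd6, the complex I subunit encoded on the other strand, had 1880, 1880 and 1740 CPM against 2510, 2050 and 2610 CPM. The groups did not overlap here either, and mouse 2 was again the lowest of its diet (log2 change 0.38, SE 0.116, adjusted p = 0.0399). Both genes were picked for this detail by their calls, so the lack of overlap adds no support.

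mt-Co1, the catalytic subunit of complex IV, had 22200, 21600 and 20200 CPM at 50 ppm and 32100, 25700 and 29400 CPM at 2% iron. These groups were apart as well, which again adds no support (log2 change 0.45, SE 0.143, adjusted p = 0.0494). The call was kept in only 3 of 15 fits that left out 1 mouse, against 6 of 15 for mt-Nd1 and for mt-Nd6. Over 10 other settings the call of mt-Co1 was kept in 2, that of mt-Nd6 in 5 and that of mt-Nd1 in 7. The calls of mt-Nd1 and mt-Nd6 were lost without mouse 1 or 3 of the 2% group, any 50 ppm mouse, any chow mouse or mouse 2 of the cellulose group. That of mt-Co1 was kept only without mouse 2 of the 2%, 500 ppm or chow group.

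The other mitochondrial members were not called. Their log2 changes were 0.70 for mt-Co2, 0.28 for mt-Cytb, 0.27 for mt-Nd5, 0.25 for mt-Nd4, 0.23 for mt-Atp8, 0.20 for mt-Nd4l, 0.19 for mt-Co3, 0.14 for mt-Atp6, 0.07 for mt-Nd3 and -0.14 for mt-Nd2. mt-Co2, which shares all its words with copies, ran from 891 to 1550 CPM at 50 ppm and from 1120 to 2670 CPM at 2% iron, and the groups overlapped (adjusted p = 0.18). Summed with its copies, an alternative chosen after the data were seen, it changed by 0.54 with an adjusted p of 0.0148. The sign of mt-Nd3 turned when mouse 2 of the 2% group (-0.01) or mouse 3 of the 50 ppm group (-0.38) was left out.

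mt-Nd2 stood apart from its neighbour mt-Nd1 on the same strand. It had 6990, 5750 and 6020 CPM at 50 ppm and 6370, 4670 and 6040 CPM at 2% iron. The ratio of mt-Nd2 to mt-Nd1 counts within a library, looked at after the values were seen, was 1.31, 1.08 and 1.33 at 50 ppm, 1.19, 0.894 and 1.21 at 500 ppm, and 1.35, 1.27 and 1.29 on chow. It was 0.843, 0.816 and 0.814 at 2% iron and 0.683, 0.68 and 0.708 with cellulose. All 6 mice on 2% iron lay below all 9 others, and all cellulose mice lay below all other mice. The log2 difference between 2% iron and 50 ppm was -0.59, and between -0.68 and -0.54 when any 1 of the 6 mice was left out. Being a ratio inside each library it does not depend on library scaling, but it shows only unequal change, and it was chosen for its pattern, so no test is given.

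**Figure D1:**
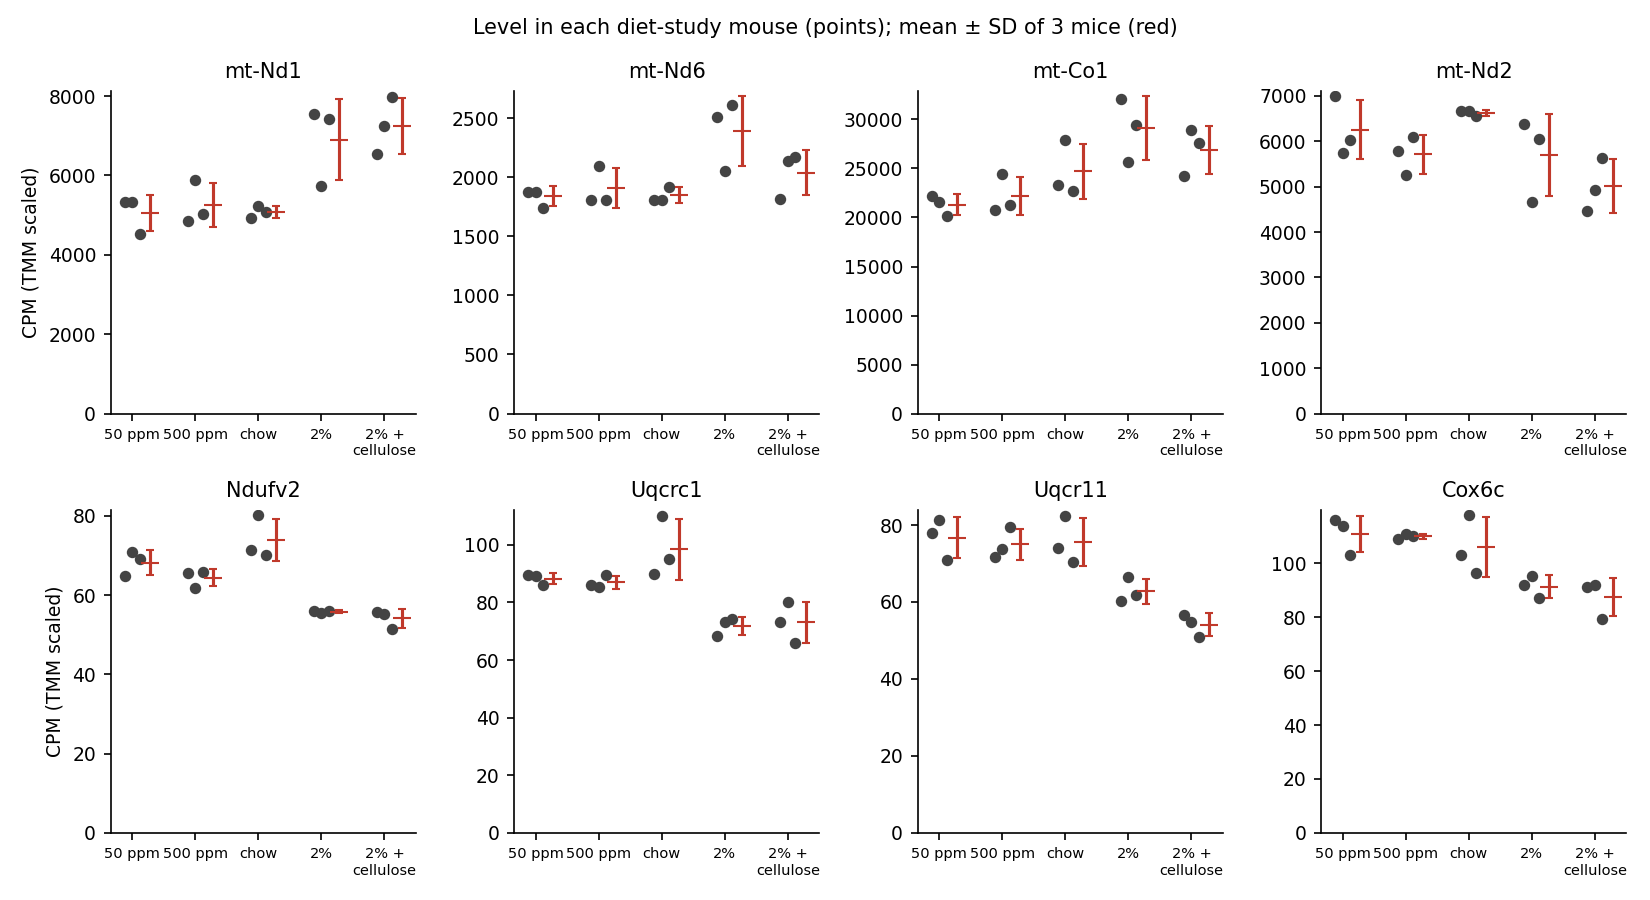
Level of 8 members in each diet-study mouse (points, CPM scaled with TMM factors, axes from 0) with the mean and SD of 3 mice in red, for 50 ppm, 500 ppm, chow, 2% iron and 2% iron with cellulose. mt-Nd1, mt-Nd6 and mt-Co1 are higher in all 3 mice at 2% iron than in any at 50 ppm, mt-Nd2 overlaps, and Ndufv2, Uqcrc1, Uqcr11 and Cox6c are lower. All but mt-Nd2 were picked by their calls, so their lack of overlap adds no support.

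Summed over the 13 genes, mitochondrial members made 9.64% ± 0.538 of the TPM at 50 ppm (SD, n = 3) and 12.1% ± 1.23 at 2% iron. Mouse by mouse the sums were 90277, 98477 and 100419 TPM at 50 ppm and 130503, 106982 and 124880 TPM at 2% iron, without overlap. The ratio of the means was 1.25, and 1.2 to 1.32 without any 1 mouse. These sums depend on how reads were split with the nuclear copies. With the copies added, the share was 11.7% ± 0.682 at 50 ppm and 15.3% ± 1.71 at 2% iron. The 86 nuclear members made 1.33% ± 0.0881 and 1.26% ± 0.0979, with overlapping groups and a ratio of 0.947. As CPM, which is not scaled by length, the nuclear sums were 7960, 8106 and 7589 at 50 ppm and 6938, 7295 and 6904 at 2% iron, without overlap and with a ratio of 0.893. The mitochondrial ratio was 1.23 on that scale. At 500 ppm and on chow the mitochondrial share was 9.5% ± 0.193 and 9.87% ± 0.154, and with cellulose it was 11% ± 1.52.

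Complex I held 7 of the 11 nuclear members called at 2% iron against 50 ppm. Of its 39 nuclear members tested, 6 fell and Ndufa4l2 rose, and 34 had negative log2 changes (median -0.22). Ndufv2, a core subunit with an iron-sulfur cluster, had 64.7, 70.8 and 69 CPM at 50 ppm and 56.1, 55.4 and 55.9 CPM at 2% iron. Its groups did not overlap, which adds no support because it was picked by its call. It fell by 0.29 on the log2 scale (SE 0.072, adjusted p = 0.0155), and of the 15 fits without 1 mouse the call was lost in that without mouse 2 of the 50 ppm group.

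Accessory subunits were among those that fell. Ndufv3 fell by 0.36 (44.8 ± 5.3 to 34.9 ± 1.99 CPM, SD, n = 3), Ndufb10 by 0.30 (61.1 ± 6.95 to 49.5 ± 2.61 CPM), Ndufa9 by 0.29 (78.6 ± 4.18 to 64.5 ± 4.25 CPM) and Ndufb11 by 0.25 (75.4 ± 3.33 to 63.6 ± 3.23 CPM). In all 4 every 2% mouse lay below every 50 ppm mouse, which adds no support because they were picked by their calls. Their adjusted p-values lay between 0.0343 and 0.0454, and their calls were kept in 6 to 10 of the 15 fits without 1 mouse, each being lost, among others, without mouse 1 or 3 of the 2% group and mouse 1 or 2 of the 50 ppm group.

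In complex III 3 of 8 nuclear members were lower and none higher. Uqcrc1, a core protein of the matrix side, had 89.4, 89.3 and 86.2 CPM at 50 ppm and 68.3, 73.2 and 74.1 CPM at 2% iron. It fell by 0.30 (adjusted p = 0.0383). Uqcrc2, its partner core protein, fell by 0.28 (174, 177 and 166 CPM against 136, 144 and 146 CPM, adjusted p = 0.0398), and the small subunit Uqcr11 fell by 0.29 (76.7 ± 5.37 to 62.8 ± 3.22 CPM, adjusted p = 0.0332). None of the 3 overlapped between the groups. They were picked by their calls and the share of all genes without overlap is not given, so this adds no support. Their calls were kept in 9, 9 and 11 of the 15 fits without 1 mouse, and each was lost without mouse 1 or 3 of the 2% group or mouse 1 or 2 of the 50 ppm group.

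Complexes II, IV and V held 1 called nuclear member among them. In complex IV 1 of 11 tested nuclear members fell: Cox6c, an accessory subunit, had 116, 114 and 103 CPM at 50 ppm and 91.9, 95.4 and 87 CPM at 2% iron (log2 change -0.28, adjusted p = 0.0486, kept in 5 of the 15 fits without 1 mouse). None of the 4 members of complex II and none of the 17 nuclear members of complex V was called, with medians of -0.13 and -0.16. At an unadjusted p under 0.05, 1 of complex II and 7 of complex V were lower, as were 3 of 8 in complex III and 14.4% of all genes. Differences between complexes were not tested. For scale, Sdha, the flavoprotein of complex II, changed by -0.29 (SE 0.098, adjusted p = 0.0652) with no overlap between the groups, and Atp5b changed by -0.13 (adjusted p = 0.356). Both were picked with their values in view, so the lack of overlap for Sdha adds no support.

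Of the 7 members on a list of iron-sulfur subunits only Ndufv2 was called. Ndufv1 changed by -0.25 (adjusted p = 0.0519), Ndufs7 by -0.26 (0.26), Ndufs1 by -0.23 (0.0816), Uqcrfs1, the Rieske protein, by -0.17 (0.188), Ndufs8 by -0.16 (0.281) and Sdhb by -0.12 (0.516). All 7 had negative log2 changes, and so had 73 of the 79 nuclear members tested.

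**Figure D2:**
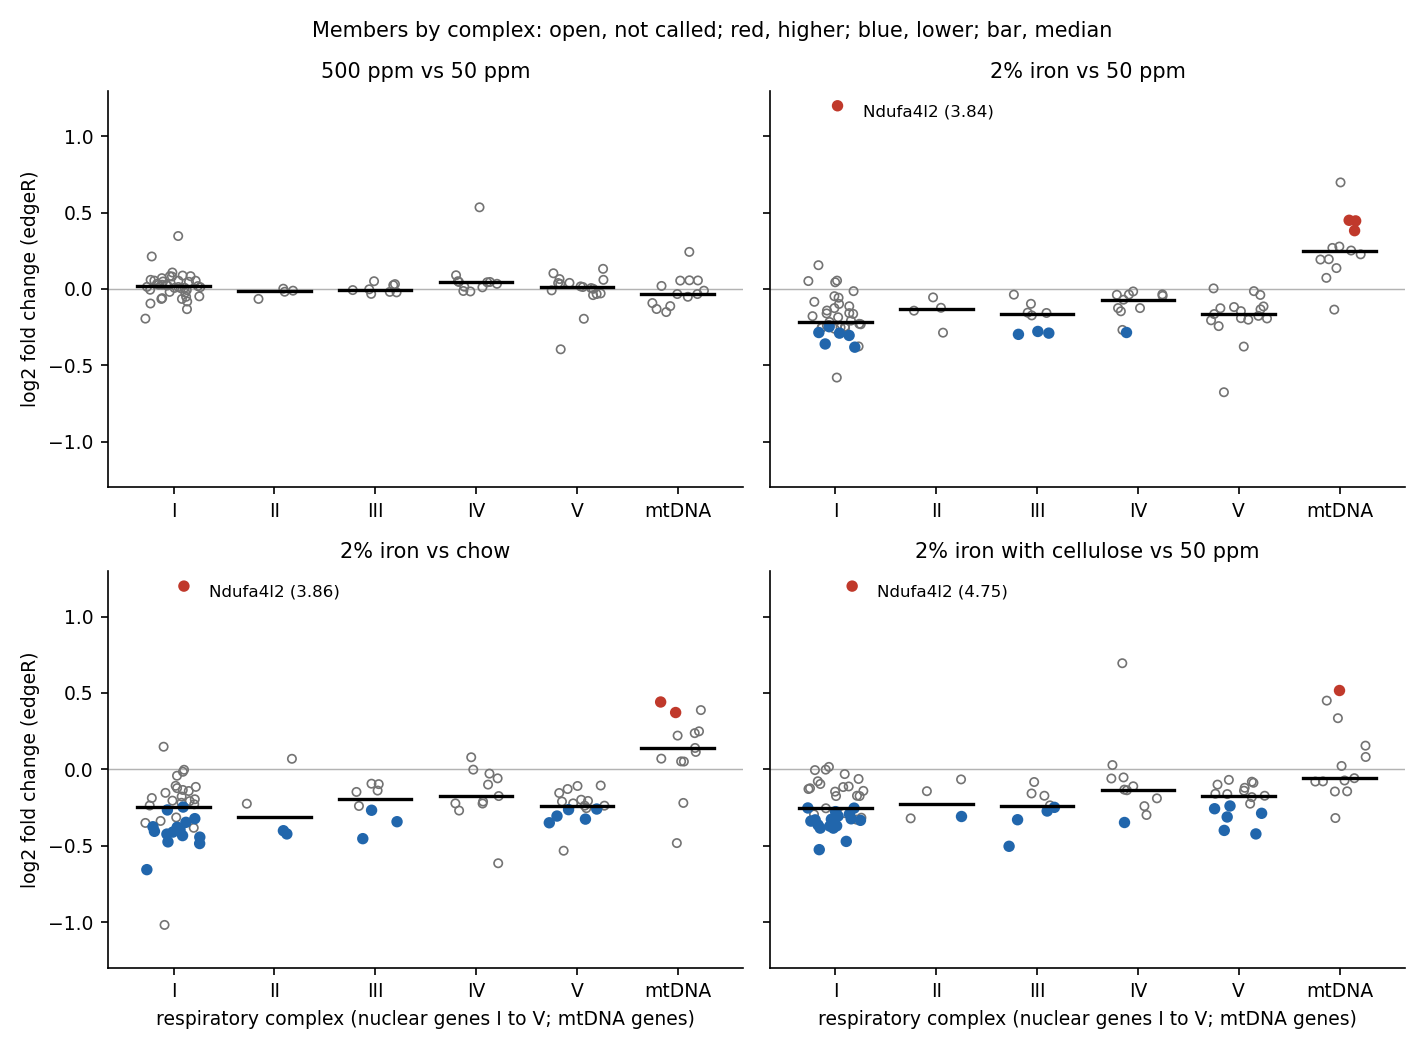
Log2 fold change (vertical axis) of each tested member, by complex for nuclear genes (I to V) and for mitochondrial genes (mtDNA), in 4 diet comparisons. Open points were not called, red were higher, blue were lower, bars are medians and points beyond the axis are drawn at its edge with their value. No point is filled at 500 ppm against 50 ppm, while the nuclear medians lie below 0 in the other 3 panels.

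The elevated diet left no called member. At 500 ppm against 50 ppm edgeR called 0 of 92 members, and 0% of all 13560 genes. None of the 92 had an unadjusted p under 0.05, which 3.16% of all genes had, and neither DESeq2 nor limma called a member. The median log2 change was 0.01.

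At 2% iron against 500 ppm, 1 member was higher and 2 were lower, where 6.59% of all genes were higher and 4.75% lower. Ndufa4l2 rose by 3.63, and Ndufv1, the flavin subunit of complex I, fell by 0.28 (106 ± 4.4 to 87.6 ± 4.62 CPM, adjusted p = 0.0412). The members' median was -0.16, close to that against 50 ppm, and 32 nuclear members had an unadjusted p under 0.05 with a negative sign, as had 12.8% of all genes. The call of Ndufv1 was kept in 7 of the 15 fits without 1 mouse and in 6 of 10 other settings. This comparison shares its 2% mice with the one above. The count of 3 became 1 without mouse 3 of the 2% group or mouse 1 or 3 of the 500 ppm group, 7 without mouse 3 of the cellulose group, 9 without mouse 2 of the 500 ppm group and 12 without mouse 2 of the chow group. DESeq2 called 15.

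Against chow, more members were lower at 2% iron: 25 fell and 3 rose, where 10.9% of all genes fell and 11.9% rose. The labels give no iron level for chow, so iron and other differences between these diets cannot be told apart. Complex I had 15 lower of 39, complex II 2 of 4, complex III 3 of 8, complex V 5 of 17 and complex IV none of 11. The members' median log2 change was -0.22, against 0.01 over all genes. Mouse 2 on chow was the highest of its group for Ndufb3, Ndufs6, Uqcrc1 and Ndufa10.

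Ndufb3, an accessory subunit of complex I, had 22.5, 30 and 24.2 CPM on chow and 15.7, 17.2 and 15.7 CPM at 2% iron, and fell by 0.66 (SE 0.129, adjusted p = 0.00288). Its groups did not overlap, which adds no support for a gene picked by its call, and mouse 2 on chow was the highest. Ndufs6 fell by 0.47 (44 ± 7.65 to 31.7 ± 3.77 CPM, SD, n = 3), Uqcrc1 by 0.45 (98.4 ± 10.7 to 71.8 ± 3.11 CPM) and Ndufa10 by 0.44 (126 ± 12.1 to 92.4 ± 6.67 CPM). Of the iron-sulfur subunits 5 of 7 fell, and both Sdha (0.40) and Sdhb (0.42) of complex II fell. In the opposite direction, mt-Nd1 rose by 0.44 (adjusted p = 0.0329) and mt-Nd6 by 0.37 (adjusted p = 0.033). The count of 28 became 17 without mouse 1 or mouse 3 of the 2% group and 12 without mouse 2 on chow. The calls of Ndufs6 and Ndufa10 were lost with limma on log2 TPM. That of Ndufs6 was lost without mouse 1 of the 2% group or mouse 2 on chow, and those of mt-Nd1 and mt-Nd6 without mouse 1 or 3 of the 2% group or any chow mouse.

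Chow and 50 ppm were themselves compared, and edgeR called none of the 92 members, where 0.391% of all genes were called. An unadjusted p under 0.05 was reached by 5 members (Ndufb3, Ndufs3, Ndufs8, Ndufv1 and Sdhb), a smaller share than the 10.4% of all genes. DESeq2 and limma called none of the members.

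With cellulose as the fibre source, 2% iron against 50 ppm gave 29 lower and 2 higher members, where 14.3% of all genes were lower and 15.4% higher. No fibre source is named for the 50 ppm diet, so iron and fibre cannot be told apart here. Complex I had 17 lower of 39, complex V 6 of 17, complex III 4 of 8, complex II 1 of 4 and complex IV 1 of 11. Uqcr11 had 77.9, 81.4 and 70.9 CPM at 50 ppm and 56.6, 54.9 and 50.8 CPM with cellulose, and fell by 0.50 (SE 0.085, adjusted p = 0.000887). The groups lay well apart, which adds no support for a gene picked by its call. The call held in all 15 fits without 1 mouse and under all 10 other settings.

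Ndufb2, an accessory subunit of complex I, had 24.6, 26.8 and 23.4 CPM against 17.1, 18.3 and 16.4 CPM, and fell by 0.53 (adjusted p = 0.00436). Atp5k, the e subunit of ATP synthase, fell by 0.42 (40 ± 2.58 to 29.8 ± 2.48 CPM). Both calls were lost with limma on log2 TPM. Atp5g2, which encodes the c subunit of the rotor ring, was called at -0.40 (adjusted p = 0.0475), but its groups overlapped (43.2, 35.4 and 47.6 CPM against 39.8, 29.6 and 26.2 CPM), and the call was kept in only 2 of the 15 fits without 1 mouse, those without mouse 1 of the cellulose group or mouse 2 of the 50 ppm group, and in 4 of 10 other settings. Of the iron-sulfur subunits 5 of 7 fell. The total of 31 became 19 and 18 without mouse 1 or 3 of the cellulose group and 15 and 18 without mouse 1 or 2 of the 50 ppm group.

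The mitochondrial side differed on this diet. mt-Nd1 rose by 0.52 (5320, 5320 and 4520 CPM against 6550, 7240 and 7970 CPM, adjusted p = 0.0118, lost without mouse 3 of the 50 ppm group), while the other 12 were not called and the median of the 13 was -0.06. mt-Nd6 changed by 0.15 (adjusted p = 0.338) and mt-Cytb, the only mitochondrial subunit of complex III, by -0.14 (adjusted p = 0.453). Set directly against the 2% iron diet for which no fibre source is named, none of the 92 members was called by edgeR, where 0.0811% of all genes were. An unadjusted p under 0.05 was reached by 8 members, 7 of them lower, a smaller share than the 13% of all genes, and DESeq2 called mt-Cytb lower. mt-Cytb had 11100, 8890 and 11400 CPM at 2% iron and 6500, 8080 and 8860 CPM with cellulose, without overlap (log2 change -0.42, adjusted p = 0.219 in edgeR).

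A single nuclear member rose at 2% iron, and it rose far more than any other changed. Ndufa4l2 (chr10:127514967-127517154), a paralogue of Ndufa4 known as a target of hypoxia signalling, had 0.775, 1.84 and 0.746 CPM at 50 ppm, 2.15, 1.07 and 0.791 CPM at 500 ppm, and 1.32, 1.21 and 0.8 CPM on chow. At 2% iron it had 29.8, 10.4 and 7.51 CPM, and with cellulose 58.8, 25.6 and 5.54 CPM. All 6 mice on 2% iron lay above all 9 others, with a spread of about an order of magnitude among themselves. The log2 change was 3.84 against 50 ppm (SE 0.851, adjusted p = 0.00878), 3.63 against 500 ppm (adjusted p = 0.0103), 3.86 against chow (adjusted p = 0.00524) and, with cellulose, 4.75 against 50 ppm (adjusted p = 0.00123). All 4 calls were kept in all 15 fits without 1 mouse and in all 9 other settings. Macrophage markers, most erythroid markers tested and 2 of 7 endothelial markers rose in the same mice (summed levels above). Their part in the change of Ndufa4l2 was not tested.

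**Figure D3:**
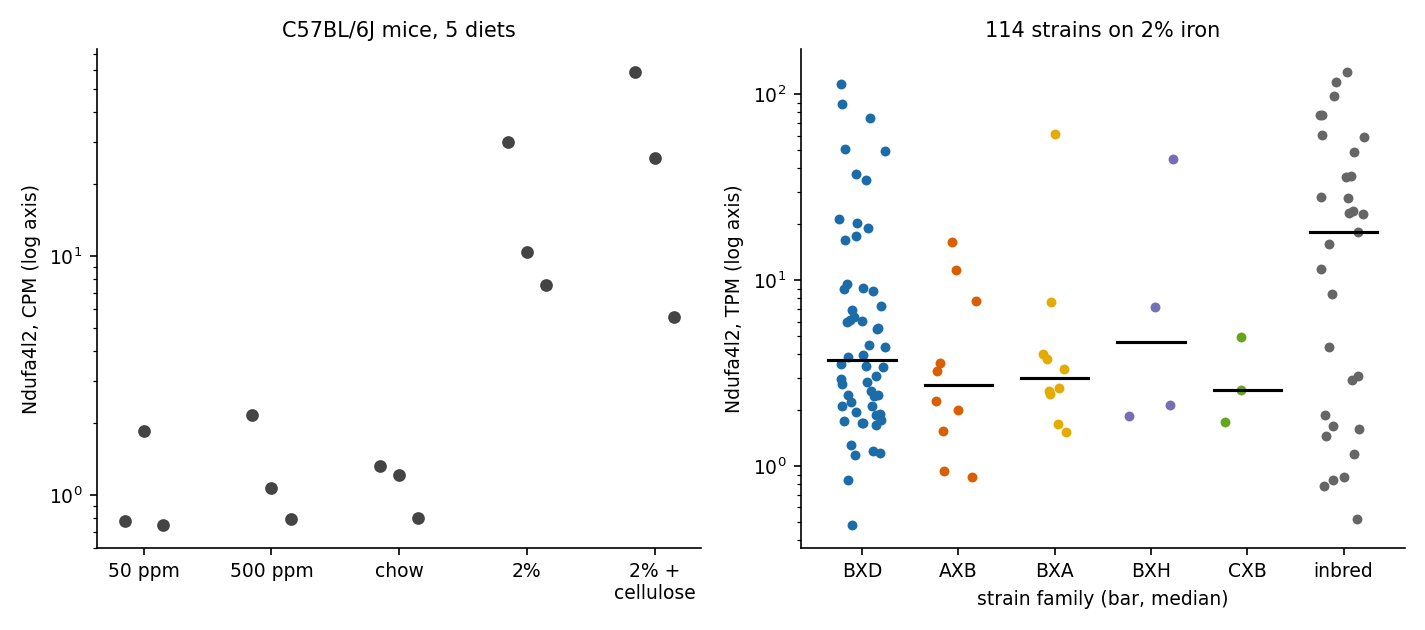
Ndufa4l2 in each diet-study mouse (left, CPM, log axis) and in each of 114 strains on 2% iron by family (right, TPM, log axis, bar at the median). The 6 mice on 2% iron lie above the other 9 on the left, and strains range from 0.482 to 132 TPM on the right. The 2 panels have separate scales and come from tables processed apart.

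Other genes of the pathway were counted at 2% iron against 50 ppm, where 7.17% of all genes fell. Of 44 tested assembly factors 4 fell and none rose (median log2 change -0.20), a share near that of all genes, including the complex III factors Uqcc3 (-0.63) and Uqcc1 (-0.45) and the complex I factor Ndufaf1 (-0.48). Of 14 enzymes of the citric acid cycle 5 fell, among them Suclg1 (-0.56), Fh1 (-0.50) and Dlst (-0.32). Cyc1, the haem-bearing cytochrome c1 of complex III, which the symbol rule does not reach, had 125 to 128 CPM at 50 ppm and fell by 0.37 (adjusted p = 0.031), without overlap between the groups. Cyc1 was named because it was called, so the lack of overlap adds no support.

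Of 19 genes for mitochondrial transcription and genome upkeep only Polg2, an accessory subunit of the mitochondrial DNA polymerase, was called (-0.61). Of 8 regulators of mitochondrial biogenesis Pprc1 rose by 0.71 and Esrra, an oestrogen-related receptor, fell by 0.38. Among 17 genes of mitochondrial mass and import, the chaperonin Hspd1 fell by 0.38 and the prohibitin Phb2 by 0.30. Of 5 tested chromosome 1 copies of mitochondrial genes 3 rose, by 2.44 (Gm10925), 0.65 (Gm29216) and 0.49 (Gm28661), values that share reads with the mitochondrial members. Of the 8 hepatocyte markers 4 fell, although their summed level overlapped (54600 to 64200 TPM against 57400 to 65900 TPM).

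Among strains on the same 2% diet, nuclear members varied less than the median gene. The SD of log2(TPM + 1) between the 114 strains had a median of 0.23 for the 78 nuclear members with a mean of at least 5 TPM, 0.28 for the 13 mitochondrial members and 0.31 for all 8067 such genes. Within the diet groups of C57BL/6J the corresponding medians were 0.12 for nuclear members, 0.14 for mitochondrial members and 0.195 for all genes. Nuclear members thus varied less than the median gene among mice of 1 strain as well. Whether strain adds less to their spread than to that of other genes was not tested. With 1 mouse per strain, strain and individual cannot be told apart.

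Sums over the nuclear members of different complexes went together from strain to strain. The sum over all of them ran from 9209 TPM (NON/ShiLtJ) to 17070 TPM (BXA26/PgnJ), a 1.85-fold range, and mitochondrial sums ran from 57478 TPM (BALB/cByJ) to 137621 TPM (BXA11/PgnJ), a 2.39-fold range. As a description over 114 strains that share a library preparation and differ in depth, Pearson's r between the log2 CPM sums of pairs of complexes lay between 0.852 and 0.975 (Spearman's rho between 0.842 and 0.976). No sums over other genes are given beside these, so whether such values are particular to these complexes was not tested. Between the mitochondrial and the nuclear sum r was 0.49 and rho 0.402, and r was 0.442 without the 2 strains farthest from the median. BXA26/PgnJ had the highest nuclear sum in each of the 5 complexes.

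The BXD strains were compared with the 20 AXB and BXA strains, families with C57BL/6J as 1 common parent. Of 91 members tested 1 was higher and 7 were lower in BXD, where 6.62% of all genes were higher and 5.02% lower. The members' median log2 difference was -0.05, and at an unadjusted p under 0.05 the count was 20, a smaller share than the 25.2% of all genes. Cox7a2l ran from 66.8 to 106 CPM in BXD with a median of 83.4, and from 53.8 to 89.5 CPM in AXB and BXA with a median of 70.5. The families overlap, with means of 83.4 ± 8.59 and 72.5 ± 8.41 CPM (SD, n = 56 and 20), and the log2 difference was 0.21 (SE 0.041, adjusted p = 0.000172). It was 0.22 when Gm6969 was added in, and the call was kept in all 9 other settings.

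The 7 lower in BXD differed by less. Uqcr10 of complex III had 44.8 ± 5.36 CPM in BXD and 51.2 ± 7.66 CPM in AXB and BXA (log2 difference -0.19, adjusted p = 0.00497), a call kept in all 9 other settings. The others were Atp5mpl (-0.19) and Atp5f1 (-0.16) of complex V and Ndufa1 (-0.16), Ndufs1 (-0.15), Ndufs4 (-0.14) and Ndufa9 (-0.13) of complex I. Near-identical substrains entered as separate strains, and with these averaged the calls of Atp5mpl and Ndufa9 were lost. All 6 of these calls were lost with limma on log2 TPM. Between AXB and BXA strains, whose mitochondrial genomes come from different mothers of the reciprocal crosses, no member was called by edgeR, DESeq2 or limma, nor was any other gene by edgeR (0%). An unadjusted p under 0.05 was reached by 1 member, against 3.12% of all genes: Ndufb4c, which is annotated as a pseudogene and shares 100% of its words with other genes.

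**Figure D4:**
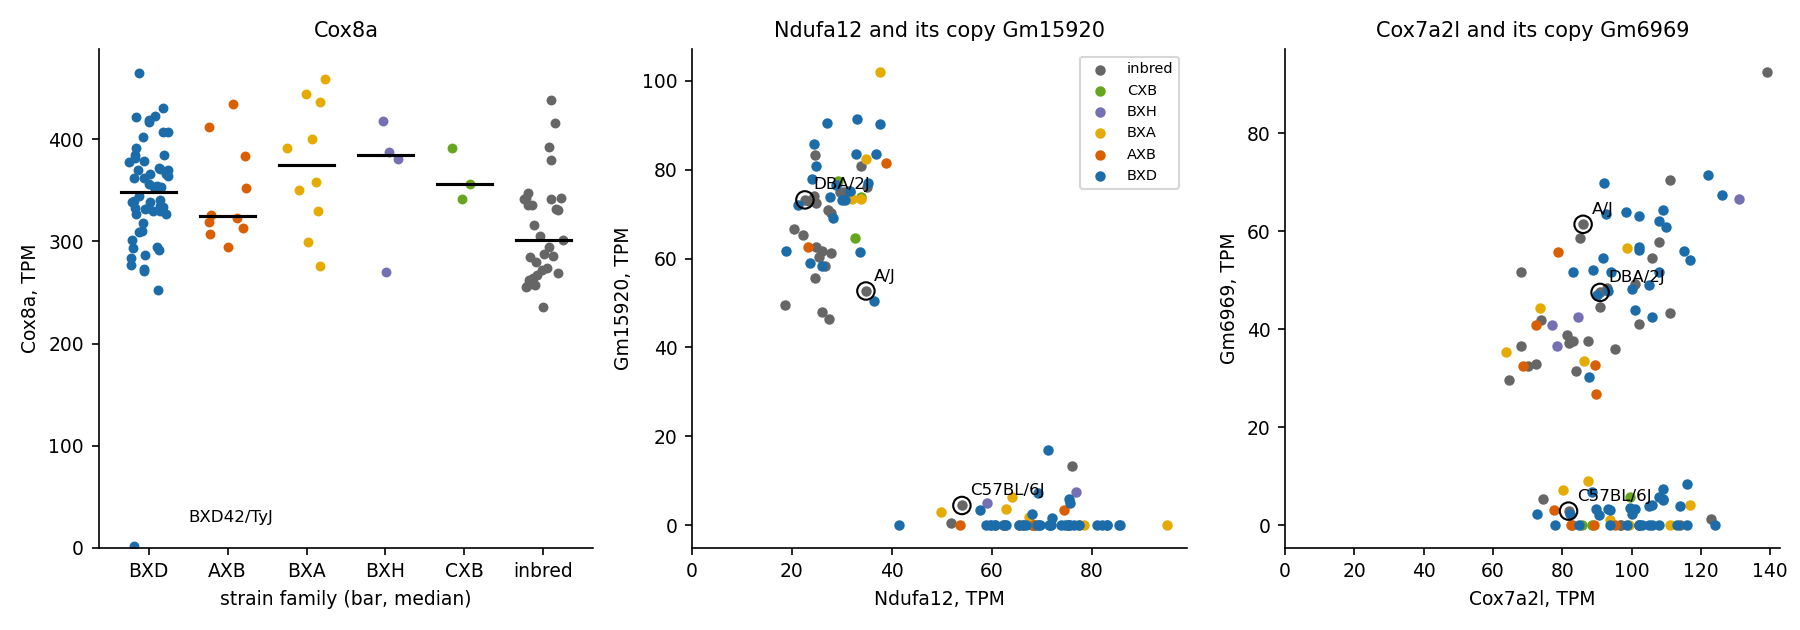
Cox8a by strain family (left, TPM, bar at the median) and, for each strain, Ndufa12 against its copy Gm15920 (middle) and Cox7a2l against its copy Gm6969 (right), all in TPM, with 3 parental strains circled. BXD42/TyJ lies near 0 for Cox8a with all other strains at 236 TPM or more, and strains with much Gm15920 have less Ndufa12.

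The 5 members that varied most between strains were Ndufa4l2 (SD of log2 1.73), Cox6c2 (0.90), mt-Nd3 (0.71), Cox8a (0.69) and Ndufa12 (0.67). Cox6c2 is 1 of the annotated pseudogenes. Within the C57BL/6J diet groups the corresponding SD was 0.94 for Ndufa4l2, 0.55 for Cox6c2, 0.62 for mt-Nd3, 0.087 for Cox8a and 0.17 for Ndufa12, so mice of 1 strain varied in mt-Nd3 nearly as much as the strains did. Ndufa4l2 ran from 0.482 TPM in BXD18/TyJ to 132 TPM in AKR/J, with a median of 3.81 and quartiles of 1.93 and 17 TPM. LP/J had 116 TPM and C57BL/6J 28.2 TPM, while DBA/2J had 1.17, A/J 2.91 and C3H/HeJ 0.519 TPM. Family medians lay between 2.58 TPM (CXB) and 4.65 TPM (BXH) for the recombinant strains, and the other inbred strains had a median of 18.2 TPM.

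Cox8a, the general isoform of the small subunit VIII of complex IV (chr19:7215153-7217616), owed its spread to 1 strain. It ran from 236 to 465 TPM in 113 strains, with a median of 340 over all, and was at 1.78 TPM in BXD42/TyJ, from 8 counts. The C57BL/6J and DBA/2J parents lay within the range of the other strains. The 4 expressed neighbours within 150 kb in BXD42/TyJ were all within the range of the others: Macrod1 17.4 TPM, Otub1 29.6, Naa40 3.65 and Mark2 13.7. BXD42/TyJ was the lowest strain for 6 of 91 members, Ndufa1, Ndufb4c, Ndufb6, Cox6c2, Cox8a and Atp5g3, and its median rank from the lowest was 16 of 114. A single mouse represents this strain, so the value has no replicate.

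For Ndufa12 the spread went with its copy. Ndufa12 ran from 18.7 to 95.1 TPM with a median of 50.9, and Gm15920 from 0 to 102 TPM with a median of 10.3. C57BL/6J had 54 TPM of Ndufa12 and 4.43 of Gm15920, whereas DBA/2J had 22.6 and 73.2, A/J 34.8 and 52.7, and C3H/HeJ 24.7 and 83.3. In the 15 C57BL/6J diet mice Gm15920 was at 0 in 12 and at most 6.85 TPM, with Ndufa12 at 75.5 to 122 TPM. The SD of log2 between strains was 0.67 for Ndufa12 alone and 0.33 for the sum of both, the latter close to the median of 0.31 over all genes.

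The level assigned to Gm6969 also varied between strains, and that of Cox7a2l varied far less. Gm6969 was under 5 TPM in 42 strains and reached 92.5 TPM in NZB/BlNJ, with 2.87 TPM in C57BL/6J, 47.5 in DBA/2J, 61.4 in A/J and 0 in BALB/cByJ. Cox7a2l ran only from 63.7 to 139 TPM (SD of log2 0.23), and the sum of both varied more than Cox7a2l alone (0.34).

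mt-Nd3 and Cox6c2 share words with other genes as well. mt-Nd3 ran from 68.1 TPM in SJL/J to 836 TPM in BXD29/Ty, with 558 TPM in C57BL/6J, 603 in A/J, 185 in DBA/2J and 179 in C3H/HeJ. Its copy Gm28438 had a median of 3280 TPM and an SD of log2 of 0.32. Cox6c2, which shares 61.7% of its words with other genes, ran from 3.96 TPM in BXD42/TyJ to its highest level in BXD56/RwwJ, with a median of 92.4 TPM, while Cox6c had a median of 299 TPM and an SD of log2 of 0.25. The ratio of mt-Nd2 to mt-Nd1 counts had a median of 0.788 over the strains, from 0.332 in NZB/BlNJ to 1.15 in AXB10/PgnJ. It was 0.778 in C57BL/6J, 0.716 in DBA/2J and 0.895 in A/J. The single NZB/BlNJ mouse also had the lowest mt-Nd2, at 1710 TPM against 3080 TPM in NON/ShiLtJ, the next lowest. Whether reads of strains other than the reference strain were matched equally well was not tested.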

How the data were processed

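Poly(A) RNA libraries of total RNA from the large liver lobe were made with a stranded kit, per the labels. The authors deposited expected counts per gene and TPM for the same mice, in separate tables for the diet study and the panel. The submitters' processing notes name kallisto 0.46 and mm10, while the index release and its settings are not given in the sources used here. kallisto assigns reads by sequence match and shares those that fit several transcripts. Before testing, the estimated (expected) counts were rounded to integers. Symbols and coordinates are those of GENCODE M21 (GRCm38), and shared words were counted in its transcripts as a stand-in for the authors' index. The members and lists were chosen with earlier results of these data known.

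Counts were tested with the quasi-likelihood test of edgeR 4.0.16 in R 4.3.3, with TMM factors, filterByExpr and Benjamini-Hochberg adjustment over all genes tested. Tests were two-sided with a threshold of 0.05 on the adjusted p. The 5 diets were fitted together, and strain families were fitted with the strain as replicate. CPM are scaled with TMM factors, and log2 TPM used a pseudocount of 1 for spreads between strains. The labels do not say whether mice of a diet shared a cage, so p-values measure the spread between these mice. With 3 against 3 mice an exact permutation test cannot go below p = 0.1, so none was run on single values. The script was tested on simulated data with known changes.

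Named members are the 13 mitochondrial ones, up to 10 called members in each direction at 2% iron against 50 ppm, up to 5 in other diet comparisons and 8 in family comparisons, by size of change, the iron-sulfur and tissue isoform lists, Cox7a2l, and the 5 most variable members between strains. Where such a member is counted but not named, its result is not reported here. Further names were picked with their values in view, among them Atp5b, Sdha and the genes that are high in the order of levels. Alternatives were RLE factors, other filters, the compared groups alone, DESeq2 1.42.0, limma 3.58.1 on log2 TPM with pseudocounts of 0.1 and 1, library sizes without mitochondrial members, each mouse left out, near-identical substrains averaged, and BXD65/RwwJ left out, whose Y-linked signal was low although it is labelled male. Those added after the data were seen were limma on log2 CPM, sums of members with their copies, summed levels without each mouse, and the forms of the mt-Nd2 to mt-Nd1 ratio. Python 3.11.15 with numpy 2.4.6, pandas 2.3.3, biopython 1.88 and matplotlib 3.10.9 was used.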

Additional observations from a re-analysis of the deposited data

Results flagged for a closer look

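Levels of 13 members were looked at in the AXB, BXA and BXH strains, 39 groups in all. The search was for a strain whose distance to its nearest neighbour was large against the range of its family. Chance meets this criterion in about 1 in 20 groups of normally distributed values. The levels were TPM without logs, which were not shown to be normal, so that rate may not hold here. The criterion was met by 5 groups. Ndufa4l2 was at 61.4 TPM in BXA2/PgnJ, where the next BXA strain had 7.66 TPM, and at 44.7 TPM in BXH2/TyJ, where the next BXH strain had 7.15 TPM. Cox7a2l was at 131 TPM in BXH2/TyJ against 84.5 TPM in the next. Ndufs1 was at 97.1 TPM in BXA26/PgnJ against 72.3 TPM in the next, and at 37.9 TPM in BXH2/TyJ against 60 TPM in the next lowest. BXH2/TyJ thus appears for 3 members in a family of 4 strains, and each strain is 1 mouse.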

How the results depend on the processing

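No paired analysis was possible because the labels carry no replicate numbers. Counts of called members moved as follows. At 2% iron against 50 ppm the 14 became 4 with the compared groups alone, 3 without a filter, and 2 with limma on log2 TPM at either pseudocount, and lay between 3 and 16 without any 1 mouse. Against 500 ppm the 3 became 15 with DESeq2, 5 with RLE factors, 5 with library sizes without mitochondrial genes, 5 with limma on log2 CPM, 1 with the compared groups alone and 1 with limma on log2 TPM at either pseudocount, and lay between 1 and 12 without any 1 mouse. Against chow the 28 became 7 with limma on log2 TPM at either pseudocount (12 to 35 without any 1 mouse). With cellulose against 50 ppm the 31 became 3 with limma on log2 TPM at either pseudocount and 20 without a filter (15 to 36 without any 1 mouse), and with cellulose against 2% iron DESeq2 called 1. Between the families the 8 became 2 with limma on log2 TPM. The counts of 0 at 500 ppm against 50 ppm, chow against 50 ppm and AXB against BXA were 0 under every alternative run, and also 0 without any 1 mouse in the diet comparisons.

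On the TPM scale the median of all genes stood at 0.106 for cellulose against 50 ppm and at 0.104 for 2% iron against chow (log2, pseudocount of 1), with that of the members at -0.047 and -0.078. The cause of the lower counts on that scale was not tested. The sign of mt-Nd3 at 2% iron against 50 ppm turned to -0.01 and -0.381 without 1 mouse each, in a range from -0.381 to 0.51. The share of members with the YY1 motif in a promoter fell from 10.6% to 1.52% in the 250 upstream bases. The summed TPM ratio stayed between 1.2 and 1.32 for mitochondrial and between 0.91 and 0.984 for nuclear members without any 1 mouse. Over all named members and settings 915 values kept their side of the threshold, 208 lost the call, 1 gained it and 2 turned sign.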
